A study of Mus musculus with 22 samples.

Results

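The genes described here are those of MHC class I antigen presentation and of the immunoproteasome: B2m, H2-K1, H2-D1, Tap1, Tap2, Tapbp, Psmb8, Psmb9, Psmb10 and Nlrc5. They were chosen by name, and all 10 were found among the 23119 genes of the count table by matching Ensembl identifiers to symbols. Their RNA was measured by sequencing bulk striatal tissue of adult male C57BL/6J mice. Oxycodone mice had self-administered the opioid at 0.25 mg/kg per infusion for 4 hours a day over 14 days, and yoked saline mice received saline infusions on the same schedule. The dorsal striatum gave 5 oxycodone and 5 saline libraries, and the ventral striatum 6 oxycodone and 6 saline libraries. All groups share strain and sex, and none carries a transgene or another drug per the labels. The labels do not say whether each library is a separate animal. The p-values take the libraries as separate and set differences between groups against the spread between these libraries.

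Class I molecules show the inside of a cell to cytotoxic T cells. A proteasome cuts proteins into peptides, the Tap1/Tap2 transporter moves these into the endoplasmic reticulum, and tapasin (Tapbp) helps load them onto a heavy chain (H2-K1 or H2-D1) held by beta-2-microglobulin (B2m). Under interferon, the catalytic subunits Psmb8, Psmb9 and Psmb10 replace Psmb5, Psmb6 and Psmb7 in newly made proteasomes, which then favour peptides that class I binds well. Nlrc5 is the transactivator that raises transcription of class I genes. In the resting brain, class I is known to be low and to be found mainly on endothelium and microglia, with class I RNA also reported in some neurons.

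On GRCm38, with gene models of GENCODE M21, 7 of the 10 genes lie in the mouse MHC on chromosome 17. Psmb9 (minus strand, chr17:34181987-34187764) and Tap1 (plus strand, chr17:34187553-34197225) start head to head and share 212 bases. Psmb8 (chr17:34197721-34201454) begins 495 bases after Tap1, and Tap2 (chr17:34203527-34216321) follows 2072 bases after Psmb8. Tapbp (chr17:33915899-33929292), H2-K1 (minus strand, chr17:33996017-34000347) and H2-D1 (chr17:35262730-35267499) flank that cluster. Elsewhere lie B2m (chr2:122147686-122153083), Psmb10 (minus strand, chr8:105935735-105938444) and Nlrc5 (chr8:94434356-94527272).

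Promoter windows of 300 bases, running from 250 bases before to 50 after an annotated start, were available from RefSeq (GRCm38.p6) for 8 of the 10 genes. They are shown because class I promoters are known for a shared module, in which an X2 element (core TGACG) and a Y box (ATTGG) are bound by factors that Nlrc5 joins, beside an interferon response element (core AANNGAAA) and a site for NF-kappa-B. The windows of the 3 class I chain genes, and the start that Tap1 shares with Psmb9, are printed 5′ to 3′ on the strand of the named gene. Capitals mark matches on either strand to the X2 core, the Y box, the interferon element core, an NF-kappa-B core (GGGNNTTCC) or a STAT core (TTCNNNGAA), so that a match on the other strand reads as its reverse complement.
B2m, chr2:122147437-122147736, plus strand: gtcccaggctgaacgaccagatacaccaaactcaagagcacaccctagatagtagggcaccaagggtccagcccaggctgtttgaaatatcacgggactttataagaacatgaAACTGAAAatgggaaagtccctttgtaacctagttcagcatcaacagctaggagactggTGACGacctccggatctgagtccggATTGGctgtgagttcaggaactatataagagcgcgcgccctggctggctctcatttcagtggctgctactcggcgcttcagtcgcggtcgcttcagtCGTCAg
H2-K1, chr17:34000298-34000597, minus strand: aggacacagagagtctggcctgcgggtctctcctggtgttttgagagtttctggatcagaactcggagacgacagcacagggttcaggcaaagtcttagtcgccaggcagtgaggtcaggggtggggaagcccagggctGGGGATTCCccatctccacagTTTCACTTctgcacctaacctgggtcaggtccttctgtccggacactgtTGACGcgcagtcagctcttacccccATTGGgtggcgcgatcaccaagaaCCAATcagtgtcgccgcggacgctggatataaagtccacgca
H2-D1, chr17:35262844-35263143, plus strand: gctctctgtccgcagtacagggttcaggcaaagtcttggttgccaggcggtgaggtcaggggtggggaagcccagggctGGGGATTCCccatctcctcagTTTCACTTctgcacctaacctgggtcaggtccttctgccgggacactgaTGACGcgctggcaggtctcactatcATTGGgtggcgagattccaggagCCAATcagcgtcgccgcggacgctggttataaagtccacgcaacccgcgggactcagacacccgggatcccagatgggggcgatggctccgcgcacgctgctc
Tap1, chr17:34187306-34187605, plus strand: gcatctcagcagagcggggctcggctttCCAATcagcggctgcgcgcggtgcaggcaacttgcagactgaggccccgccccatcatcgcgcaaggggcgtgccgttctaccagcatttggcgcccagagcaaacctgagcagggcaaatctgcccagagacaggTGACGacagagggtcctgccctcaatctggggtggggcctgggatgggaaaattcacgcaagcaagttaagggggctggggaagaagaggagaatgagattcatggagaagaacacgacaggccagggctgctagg

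In B2m, H2-K1 and H2-D1, TGACG was followed by exactly 20 bases and then ATTGG. This spacing was seen in the 3 sequences first and then searched for. It occurred in 31 of 32851 RefSeq windows of the same length (0.0944%), while TGACG alone was in 20.8% of windows and ATTGG alone in 37.4%. H2-K1 and H2-D1 both held the NF-kappa-B core, which 5.82% of windows held, and all 3 genes held AANNGAAA, which 23.9% of windows held. The Tap1 and Psmb9 windows overlap on opposite strands, and both hold TGACG and ATTGG without that spacing. Psmb8 held TTCNNNGAA, a core bound by STAT factors that was in 8.3% of windows. A match is a description of the letters and not of binding.

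Library totals ran from 13797075 to 17836414 counts in dorsal oxycodone, from 11314079 to 21921963 in dorsal saline, from 8408829 to 10007992 in ventral oxycodone and from 9172185 to 11000345 in ventral saline libraries. CPM are counts relative to the library total, scaled by TMM factors. Summed markers of striatal projection neurons stood at 3991.8 to 4770.3 CPM in the 10 dorsal libraries. In the ventral set they were 175 CPM in saline replicate 6 and 2264.5 to 4956.7 CPM in the others, highest in oxycodone replicate 6. Ventral saline replicate 6 also had the most glutamatergic neuron markers of the ventral libraries (1391.5 CPM, next 484 CPM). Its oligodendrocyte markers were the lowest of them (418 CPM, next 1198 CPM). This library is part of the ventral saline means given here. Choroid plexus markers were highest among ventral libraries in oxycodone replicate 6, at 1787 CPM. In the dorsal set they ran from 73.3 CPM in replicate 4 to 3280 CPM in replicate 1 of oxycodone, against 385 to 3578 CPM in saline libraries, with 0 of 7 markers higher after oxycodone and 0 past the threshold. Their part in the results was not tested. Dorsal oxycodone replicates 3 to 5 and dorsal saline replicates 3 and 4 carry a title suffix P whose meaning is not given. Oxycodone replicates 2 and 3 share a title number in the dorsal set, as do saline replicates 2 and 3, and the labels do not say whether they share an animal.

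Per kilobase of annotated exon, B2m was the most abundant of the 10 RNAs in every group. It averaged 168.5 ± 79.7 in dorsal oxycodone and 82.5 ± 13.9 CPM per kilobase in dorsal saline libraries (SD, n = 5 each). In dorsal saline libraries H2-K1 followed at 19.9 ± 3.12, H2-D1 at 10.9 ± 1.52, Tapbp at 8.26 ± 1.12 and Psmb10 at 7.55 ± 2.81 CPM per kilobase. Tap2, Psmb8, Tap1, Psmb9 and Nlrc5 were lower, with means between 0.779 for Nlrc5 and 2.83 for Tap2. Psmb10 did not differ beyond the SD from Tapbp or from H2-D1. Neither did Tap2 and Psmb8, Tap2 and Tap1, Psmb8 and Tap1, or Psmb9 and Nlrc5 differ from each other beyond their SD. The constitutive subunit Psmb5 stood at 80.2 ± 8.62 and Psmb6 at 76.7 ± 5.86 CPM per kilobase in the same libraries, far above Psmb8 at 1.89 ± 0.383 and Psmb9 at 1.07 ± 0.302. Lengths are those of all annotated exons of a gene, so these levels depend on the annotation.

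In the dorsal striatum, the comparison asked how these RNAs differ after oxycodone self-administration. Psmb8 and Psmb9, catalytic subunits of the immunoproteasome, rose 2.51-fold and 2.81-fold after oxycodone. The other 8 genes also had positive log2 changes, from 0.14 for Tapbp to 1.53 for Nlrc5, without passing the threshold of an adjusted p of 0.05 in edgeR's quasi-likelihood test. Thus 2 of the 10 passed, against 0.206% of the 14595 genes tested, and 9 of the 10 had an unadjusted p under 0.05, against 5.64%. The median log2 change of the 10 was 0.98, against -0.01 for all genes. In bulk tissue, more cells of a type and more RNA per cell cannot be told apart.

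**Figure D1:**
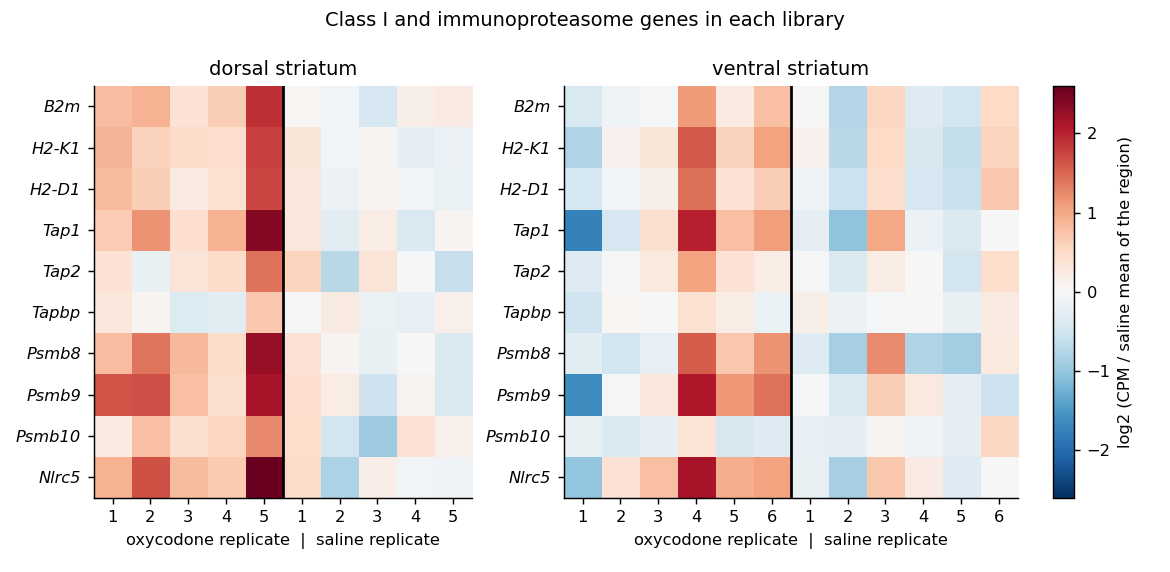
Heat map of log2 (CPM over the saline mean of the region), with 0.1 CPM added to both, for the 10 genes (rows) in each library (columns), oxycodone replicates left of saline replicates. Dorsal oxycodone replicate 5 is the darkest column of its region, with a median of 1.84 over the 10 genes, and ventral oxycodone replicate 4 that of the ventral striatum, with 1.51.

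Among the class I chains, B2m had 124, 133, 91.7, 111 and 264 CPM in dorsal oxycodone replicates 1 to 5, against 73.5, 67.8, 52.0, 79.0 and 82.4 CPM in dorsal saline replicates 1 to 5. The groups did not overlap, and oxycodone replicate 5 stood far above the other oxycodone libraries. The log2 change was 1.03 (SE 0.30, edgeR adjusted p = 0.493). H2-K1, a classical heavy chain, had 108, 88.9, 82.1, 79.1 and 202 CPM in dorsal oxycodone libraries, against 72.9, 55.4, 61.5, 49.9 and 52.5 CPM in dorsal saline libraries. These groups did not overlap either, and the log2 change was 0.94 (SE 0.28, edgeR adjusted p = 0.513). H2-D1, the other classical heavy chain, had 49.6, 43.9, 32.7, 37.1 and 93.8 CPM in dorsal oxycodone libraries, against 34.4, 25.4, 29.4, 26.6 and 24.9 CPM in dorsal saline libraries. Here oxycodone replicate 3 lay below the highest saline library, and the log2 change was 0.87 (SE 0.24, edgeR adjusted p = 0.377). Of 50-base stretches of the H2-K1 and H2-D1 transcripts, 9.63% and 12.8% occur in other genes too, mainly in each other and in H2-Q genes, so reads of these chains could be split between paralogs.

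Of the peptide loading genes, Tap1 differed most between the groups. It encodes the partner of Tap2 in the transporter, and it had 15.9, 22.6, 13.7, 18.8 and 52.7 CPM in dorsal oxycodone libraries, against 12.3, 8.17, 11.5, 7.65 and 10.6 CPM in dorsal saline libraries. The groups did not overlap, and the log2 change was 1.30 (SE 0.32, edgeR adjusted p = 0.16). Tap2 had 14.0, 9.42, 13.6, 14.8 and 28.7 CPM in dorsal oxycodone libraries, against 16.1, 6.42, 13.4, 10.5 and 7.06 CPM in dorsal saline libraries. These groups overlapped apart from oxycodone replicate 5, with a log2 change of 0.59 (SE 0.28, edgeR adjusted p = 0.872). Tapbp had 36.7, 31.6, 23.3, 24.4 and 48.9 CPM in dorsal oxycodone libraries, against 29.2, 35.2, 26.7, 25.6 and 32.9 CPM in dorsal saline libraries. Its groups overlapped widely, and its log2 change of 0.14 (SE 0.17, edgeR adjusted p = 0.998) turned to -0.04 without oxycodone replicate 5. The strand setting of the counting is not given, so reads of Tap2, Tapbp and Psmb8 cannot be told from those of annotated antisense genes, which cover 14.1%, 24.92% and 14.73% of their exons, nor reads of the 212 bases that Tap1 and Psmb9 share.

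Both genes past the threshold encode immunoproteasome subunits. Psmb8, the chymotrypsin-like subunit, had 11.3, 16.8, 11.6, 8.89 and 31.2 CPM in dorsal oxycodone libraries, against 8.34, 6.68, 5.61, 6.42 and 4.91 CPM in dorsal saline libraries. Its groups did not overlap, although the lowest oxycodone library was close to the highest saline one, and the log2 change was 1.32 (SE 0.29, edgeR adjusted p = 0.0391). Psmb9 had 12.4, 12.8, 6.82, 5.23 and 17.6 CPM in dorsal oxycodone libraries, against 5.32, 4.48, 2.66, 4.19 and 2.94 CPM in dorsal saline libraries. All but oxycodone replicate 4 exceeded every saline library, and the log2 change was 1.49 (SE 0.32, edgeR adjusted p = 0.0391). Psmb10, the trypsin-like subunit, had 15.2, 22.3, 17.2, 19.1 and 30.6 CPM in dorsal oxycodone libraries, against 17.7, 9.23, 6.61, 16.6 and 14.2 CPM in dorsal saline libraries. These groups overlapped, and its log2 change was 0.70 (SE 0.24, edgeR adjusted p = 0.469).

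Nlrc5, the transactivator, had 12.5, 21.1, 11.7, 10.7 and 39.7 CPM in dorsal oxycodone libraries, against 9.41, 3.69, 7.48, 6.29 and 6.22 CPM in dorsal saline libraries. The groups did not overlap, and the log2 change of 1.53 (SE 0.34) was the largest of the 10, with an edgeR adjusted p of 0.0743. In all, 5 of the 10 genes had oxycodone and saline groups that did not overlap with oxycodone higher, namely B2m, H2-K1, Tap1, Psmb8 and Nlrc5, against 0.843% of the genes tested.

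**Figure D2:**
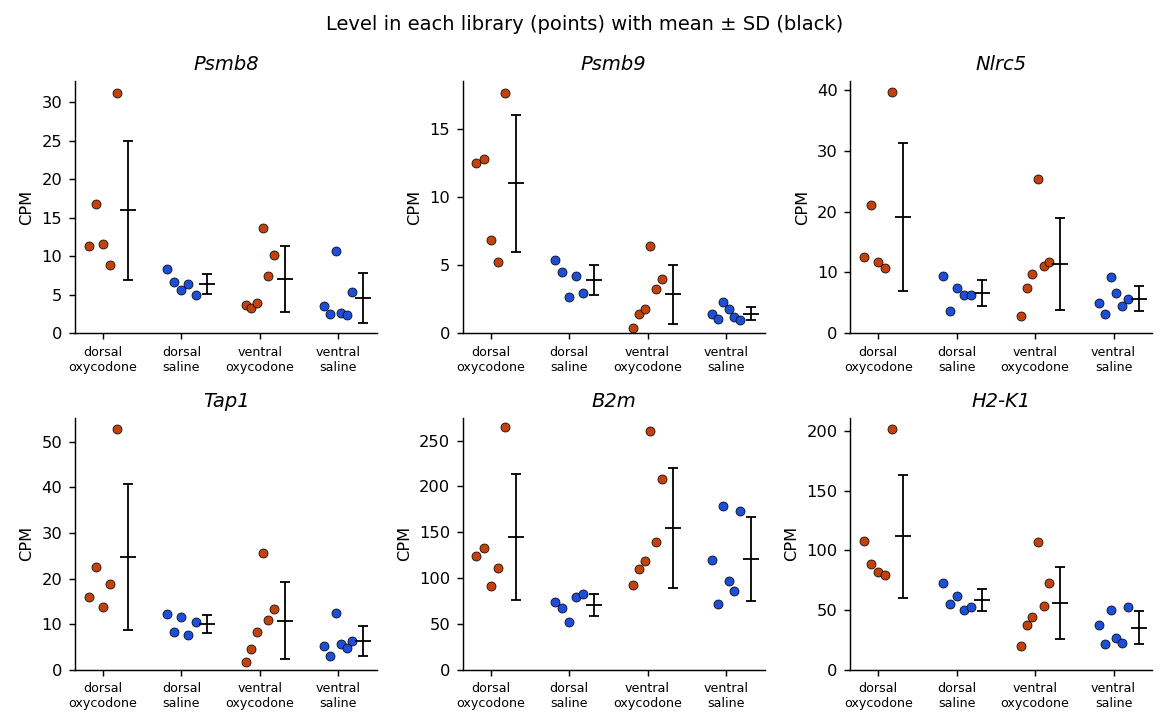
CPM of 6 of the genes in each library (points) by group, with mean ± SD in black (n = 5 in dorsal and 6 in ventral groups). In the dorsal striatum the oxycodone points of Psmb8, Nlrc5, Tap1, B2m and H2-K1 all lie above the saline points, and in the ventral striatum the groups overlap for all 6.

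Which genes passed depended on the test and on single libraries. DESeq2 called 4 of the 10 (Tap1, Psmb8, Psmb9 and Nlrc5), against 0.574% of 15319 genes, whereas limma-voom with quality weights called only H2-K1, against 0.219%. When each library was left out in turn, Psmb8 passed in 4 and Psmb9 in 3 of 10 fits. Without oxycodone replicate 5, the highest library for all 10 genes, B2m (edgeR adjusted p = 0.00841) and H2-K1 (0.0253) passed, Psmb8 and Psmb9 did not, and the median log2 change was 0.66. The number of the 10 that passed was 1 without oxycodone replicate 1, 0 without oxycodone replicate 2, 5 without oxycodone replicate 3 and 3 without oxycodone replicate 4. It was 0 without each of saline replicates 2, 3, 4 and 5. The number of all genes that passed varied widely between these fits too, with its range given below, so these counts cannot be read alone. Within the libraries with suffix P 0 of the 10 passed, and within those without it only B2m did, with median log2 changes of 1.18 and 0.76. With suffix P as a covariate, and with libraries that share a title number summed, only Psmb9 of the 10 passed both times.

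Markers of red cells moved with these genes in the dorsal striatum. The summed level of the 5 red cell markers ran from 593 to 1780 CPM in oxycodone libraries, against 410 to 629 CPM in saline libraries, and no marker was at 0. All 5 markers had positive log2 changes and Alas2 passed the threshold (edgeR adjusted p = 0.0197). The highest red cell level was in oxycodone replicate 5, the library in which all 10 genes were highest. With the mean log2 level of these markers as a covariate, 0 of the 10 genes passed and their log2 changes ran from -0.44 for Tapbp to 0.68 for Nlrc5, with a median of 0.33. Treatment and red cell level go together in these libraries, so that fit cannot tell them apart.

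Markers of white cells were also uneven. The 10 neutrophil and monocyte markers summed to 80.7 to 171 CPM in dorsal oxycodone libraries, against 54.7 to 83.8 CPM in dorsal saline libraries, with 5 of the 7 tested markers higher and 0 past the threshold. Cxcr2 was under 1 CPM in every dorsal library. Of the lymphocyte markers, Cd3e, Cd3d and Ms4a1 were at 0 in all 10 dorsal libraries, and 1 of the 10 markers had enough counts to be tested. Microglial markers summed to 632 to 839 CPM in dorsal oxycodone libraries, against 601 to 635 CPM in dorsal saline libraries, with 8 of 11 higher and 0 past the threshold. Endothelial markers summed to 401 to 523 CPM, against 371 to 422 CPM, with 6 of 10 higher and 0 past the threshold. Within the dorsal oxycodone group, the summed markers of neutrophils and monocytes, microglia and endothelium were each highest in replicate 5, as were those of border macrophages (81.7 CPM), pericytes and smooth muscle (421 CPM), astrocytes (2598.0 CPM) and glutamatergic neurons (166 CPM). Oligodendrocyte markers were lowest in replicate 5 of that group, at 2637 CPM. Summed markers of striatal projection neurons, choroid plexus and lymphocytes were highest in other replicates of it. By mean log2 CPM, however, lymphocyte (-0.943) and choroid plexus markers (4.906) were highest in replicate 5 of that group. Border macrophage markers were by that measure highest in its replicate 4 (2.994, against 2.879 in replicate 5). The part of these cell types in the results was not tested.

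**Figure D3:**
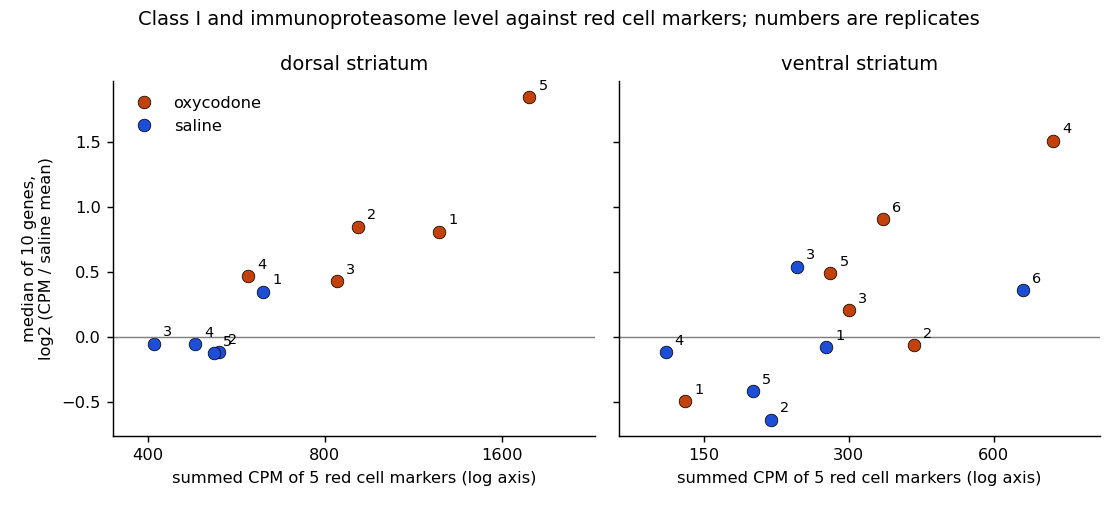
Median log2 (CPM over the saline mean of the region) of the 10 genes in each library against the summed CPM of 5 red cell markers (log axis); numbers are replicates. In the dorsal striatum oxycodone replicate 5 is highest on both axes, at 1780 CPM and 1.84, and in the ventral striatum oxycodone replicate 4 is, at 799 CPM and 1.51.

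The change in Psmb8 and Psmb9 was set against the constitutive subunits they replace. Psmb5, Psmb6 and Psmb7 had dorsal log2 changes of -0.09 (SE 0.11), -0.13 (SE 0.08) and -0.08 (SE 0.10), with 0 of 3 past the threshold. Psmb6, for example, had 145, 127, 134, 123 and 125 CPM in dorsal oxycodone libraries, against 153, 149, 127, 138 and 151 CPM in dorsal saline libraries, and these groups overlapped. The log2 ratio of Psmb8 to Psmb5, from CPM with 0.5 added, was -2.51, -2.29, -2.30, -2.70 and -1.08 in dorsal oxycodone libraries, against -3.14, -3.44, -3.39, -3.21 and -3.87 in dorsal saline libraries. Every oxycodone library had the higher ratio, by 1.23 on average. The log2 ratio of Psmb9 to Psmb6 was -3.49, -3.26, -4.20, -4.43 and -2.79 in dorsal oxycodone libraries, against -4.72, -4.91, -5.33, -4.88 and -5.46 in dorsal saline libraries. Again the groups did not overlap, with a difference of 1.42.

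For both pairs the exact two-sided permutation test gave p = 0.00794, the smallest that 5 against 5 libraries allow. Adjusted over the 6 ratio tests, this permutation p was 0.0238. The test takes every library as separate, although dorsal oxycodone replicates 2 and 3 share a title number, as do dorsal saline replicates 2 and 3. It was not run with such libraries summed. The ratio of Psmb10 to Psmb7 differed by 0.80 with overlapping groups (exact permutation p = 0.0794, adjusted 0.159). Without oxycodone replicate 5 the 3 differences were 0.96, 1.21 and 0.60. These ratios were chosen with the change of Psmb8 and Psmb9 known and are not independent evidence of it. In the ventral striatum the differences were 0.64 for Psmb8 to Psmb5, 0.56 for Psmb9 to Psmb6 and -0.08 for Psmb10 to Psmb7, with exact permutation p-values of 0.223, 0.292 and 0.587 (adjusted 0.334, 0.351 and 0.587).

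**Figure D4:**
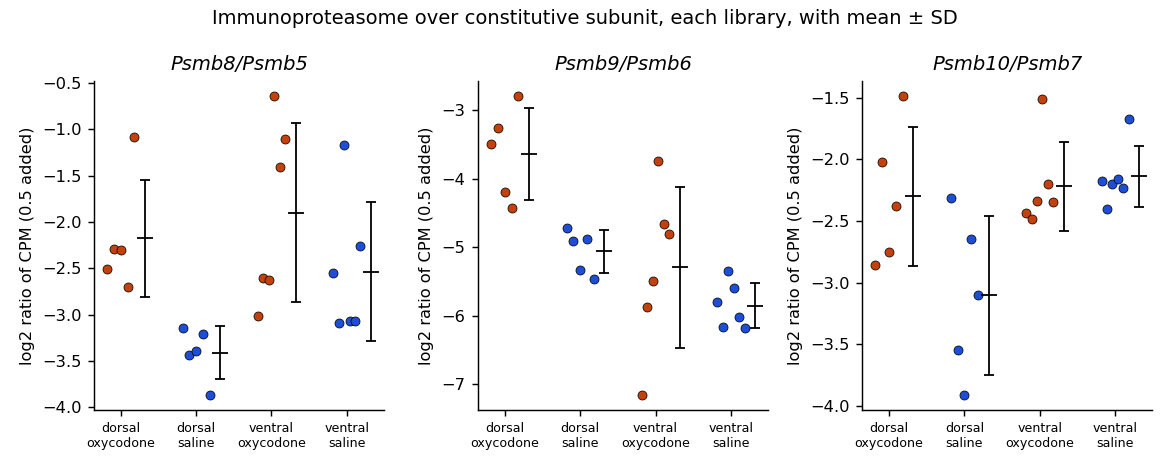
Log2 ratio of each immunoproteasome subunit to the constitutive subunit it replaces, from CPM with 0.5 added, in each library (points) with mean ± SD (n = 5 dorsal, 6 ventral). Dorsal oxycodone points lie above dorsal saline points without overlap for Psmb8/Psmb5 and Psmb9/Psmb6, and the ventral groups overlap for all 3 ratios.

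In the ventral striatum 9 of the 10 genes had positive log2 changes, but 0 passed the threshold, and 0 of the 14116 genes tested did (0%). The smallest edgeR adjusted p of any gene was 0.237, while 9.13% of genes had an unadjusted p under 0.05. Of the 10 genes, only Nlrc5 did, with an edgeR adjusted p of 0.514. DESeq2 called 45 genes (0.292%) and limma-voom 61 (0.432%), with 0 of the 10 among either. The median log2 change of the 10 was 0.56, against 0.00 for all genes.

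Nlrc5 ran from 2.77 through a median of 10.4 to 25.5 CPM in ventral oxycodone libraries, against 3.08 through 5.29 to 9.20 CPM in ventral saline libraries. Oxycodone replicates 3 to 6 exceeded every saline library and replicate 1 lay below all of them, with a log2 change of 1.01 (SE 0.42). Psmb9 ran from 0.396 through 2.49 to 6.37 CPM in ventral oxycodone libraries, against 0.943 through 1.27 to 2.27 CPM in ventral saline libraries. Its lowest and highest libraries were both oxycodone libraries, and its log2 change was 1.00 (SE 0.50, edgeR adjusted p = 0.574). It rested on 4 to 54 reads per ventral oxycodone library and 10 to 21 per ventral saline library, so its precision is limited by counting. Tap1 had a log2 change of 0.79 (SE 0.52), with 1.78 to 25.7 CPM in ventral oxycodone libraries, against 2.98 to 12.6 CPM in ventral saline libraries.

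Psmb8 ran from 3.19 through 5.66 to 13.7 CPM in ventral oxycodone libraries, against 2.35 through 3.08 to 10.7 CPM in ventral saline libraries. The groups overlapped, with saline replicate 3 the highest of its group, and the log2 change was 0.64 (SE 0.47, edgeR adjusted p = 0.686). The class I chains had ventral log2 changes of 0.67 (SE 0.37) for H2-K1, 0.48 (SE 0.33) for H2-D1 and 0.36 (SE 0.30) for B2m, and those of Tap2 and Tapbp were 0.33 (SE 0.23) and 0.02 (SE 0.14). Psmb10 was the only one with a negative value, -0.17 (SE 0.17). It had 15.8 to 27.1 CPM in ventral oxycodone libraries, against 17.7 to 30.7 CPM in ventral saline libraries. Over left-out libraries its log2 change ran from -0.31 without oxycodone replicate 4 to -0.03 without saline replicate 6, its highest library.

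The ventral values leaned on 1 library. Oxycodone replicate 4 was the highest oxycodone library for all 10 genes, and it also had the highest summed red cell markers of the region, at 799 CPM. Red cell markers ran from 137 to 799 CPM in ventral oxycodone libraries, against 125 to 690 CPM in ventral saline libraries, with all 5 of them positive and 0 past the threshold. Without oxycodone replicate 4 the median log2 change of the 10 genes was 0.25. The 8 libraries of lane 1 and the 4 of lane 2 gave medians of 0.48 and 0.59, and leaving out both sixth libraries gave 0.60, with 0 of the 10 past the threshold each time.

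**Figure D5:**
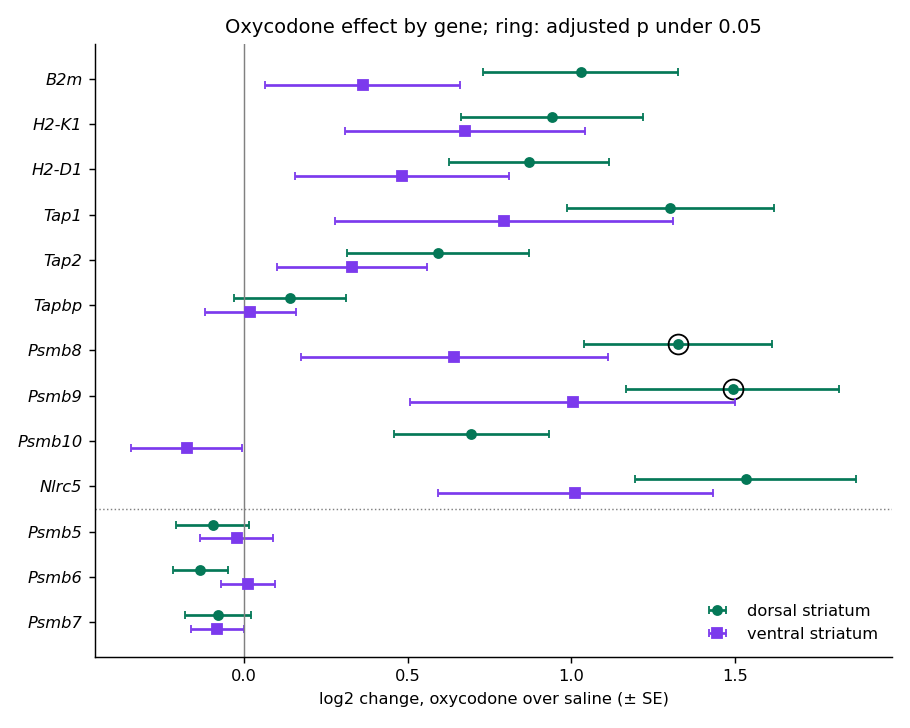
Log2 change of oxycodone over saline ± SE from edgeR for the 10 genes and, below the dotted line, the 3 constitutive subunits, in the dorsal (green circles, n = 5 against 5) and ventral striatum (purple squares, n = 6 against 6). Rings mark an adjusted p under 0.05, reached by dorsal Psmb8 (1.32) and Psmb9 (1.49); the constitutive subunits lie between -0.13 and 0.01.

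Whether the effect of oxycodone differed between regions was tested directly in 1 fit of all 22 libraries. All 10 genes had a larger log2 change in the dorsal than in the ventral striatum, by 0.13 for Tapbp to 0.87 for Psmb10, yet 0 passed the threshold, as did 0 of the 14938 genes tested (0%). Every one of the 10 had an edgeR adjusted p of 0.981. Psmb10 was the only one with an unadjusted p under 0.05 (difference 0.87, SE 0.32), against 4.51% of all genes, and DESeq2 and limma-voom called 0 genes. The median difference of the 10 was 0.51, and it was 0.07 without dorsal oxycodone replicate 5 and 0.89 without ventral oxycodone replicate 4.

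The saline libraries show the level of these RNAs without the drug, and the regions differed in both directions. Psmb9 was 2.72-fold higher in dorsal than in ventral saline libraries, with 3.92 ± 1.11 CPM (n = 5) against 1.42 ± 0.498 CPM (SD, n = 6), and an edgeR adjusted p of 0.00248. H2-K1 was 1.65-fold higher, with 58.4 ± 9.17 CPM in dorsal against 35.1 ± 13.8 CPM in ventral saline libraries (edgeR adjusted p = 0.0228). Tapbp was 1.3-fold higher (edgeR adjusted p = 0.0206).

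B2m and Psmb10 were lower in the dorsal striatum. B2m averaged 71.0 ± 11.9 CPM in dorsal against 121.0 ± 45.6 CPM in ventral saline libraries, a log2 change of -0.78 (SE 0.24, edgeR adjusted p = 0.0196), which limma-voom did not call (adjusted p = 0.126). Psmb10 averaged 12.9 ± 4.79 CPM in dorsal against 21.1 ± 5.04 CPM in ventral saline libraries, a log2 change of -0.72 (SE 0.24, edgeR adjusted p = 0.0249). With each saline library left out in turn, Psmb9 and B2m passed in all 11 fits and H2-K1, Tapbp and Psmb10 in 10 of them. In all, 5 of the 10 genes passed, close to the share of 45.8% among the 14433 genes tested. Of the genes tested, 3403 passed as higher and 3213 as lower in the dorsal libraries. Markers of cell types differed between the same saline groups. Past the threshold as higher in the dorsal libraries were 8 of 11 microglial, 6 of 6 oligodendrocyte and 4 of 10 endothelial markers. So were 6 of 7 choroid plexus markers (median log2 change 1.85) and 3 of 8 markers of striatal projection neurons. Lower past the threshold were 1 microglial and 1 endothelial marker. Of the 6 markers of glutamatergic neurons, 3 passed as lower. The part of these cell types in the difference between regions was not tested. Region goes together with sequencing depth and library set, which cannot be told apart from it. Mitochondrially encoded genes held 3.13 to 4.12% of counts in dorsal and 6.49 to 7.12% in ventral saline libraries. The part of this share in the difference was not tested.

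Around the 10 genes, the other class I heavy chains gave 9 of 12 positive log2 changes in the dorsal striatum, with 0 past the threshold and a median of 0.48, where 47.9% of all genes tested had positive values and their median was -0.01. H2-Q4, a non-classical chain, had a log2 change of 1.07 (edgeR adjusted p = 0.11), H2-T23, the ligand of NKG2 receptors, 0.80 (adjusted p = 0.165), and H2-Q7 1.55 (adjusted p = 0.462). The 11 other core subunits of the proteasome had a median of -0.06 with 0 past the threshold, and the 8 tested activator and assembly genes a median of -0.10 with 0 past it. Pomp, which assembles proteasomes, had -0.29 (edgeR adjusted p = 0.513). Among 10 genes of class I assembly and trimming, 0 passed, and the tapasin relative Tapbpl had 0.69 (edgeR adjusted p = 0.88).

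Of 29 tested interferon signalling genes and class I regulators, 22 had positive dorsal log2 changes, against 47.9% of all genes tested, and 1 passed, against 0.206%. This was Irf1, a transcription factor induced by interferon that acts on class I promoters. It had 25.7, 30.0, 10.8, 25.0 and 54.0 CPM in dorsal oxycodone libraries, against 7.36, 8.52, 9.34, 8.75 and 9.02 CPM in dorsal saline libraries, without overlap (edgeR adjusted p = 0.0162). In the ventral striatum Irf1 had a log2 change of 1.29 (SE 0.42, edgeR adjusted p = 0.449), with 4.96 to 35.3 CPM in oxycodone libraries, against 4.04 to 11.3 CPM in saline libraries. MHC class II genes had positive dorsal log2 changes in 9 of 10 cases, with a median of 1.07 and 0 past the threshold. Cd74, the class II invariant chain, had 1.62 (SE 0.71, edgeR adjusted p = 0.882), its highest library being oxycodone replicate 5 at 192 CPM. Pirb, a receptor for class I molecules on myeloid cells and neurons, had 1.69 (SE 0.42, edgeR adjusted p = 0.0933).

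Genes whose level across libraries was most like the mean of the 10 were ranked by Pearson's r, as a description over libraries that share a region and a depth range. In the 10 dorsal libraries these were Ly6a (r = 0.973), Stat3 (0.966), Clic1 (0.958), H2-T23 (0.954), Tnfaip2 (0.954), Csf1r (0.947), Apod (0.943) and the red cell gene Alas2 (0.939), against a median of -0.001 over 14111 genes. In the 12 ventral libraries they were Ifitm3 (0.963), Gpr84 (0.96), Gbp9 (0.956), H2-Q4 (0.955), Cxcl9 (0.953), Irf7 (0.95), Fcgr4 (0.948) and the unnamed gene model Gm43302 (0.946). The ventral median was -0.06 over 14120 genes. In the dorsal set 1 library, oxycodone replicate 5, was highest for all 10 genes and weighs on the dorsal values. Oxycodone replicate 4 was highest in the ventral set for 9 of the 10 and weighs on the ventral values.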

How the data were processed

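RNA was sequenced from 22 striatal tissue libraries, made with a stranded ribosomal-RNA-depleted total RNA kit per the labels. The deposited table holds raw read counts per gene. The submitters' processing notes list featureCounts, STAR 2.3 and CASAVA 1.8.2; they name mm10, GRCm38 and mm9 without their roles, and strand and multi-mapping settings are not given in the sources used here. Symbols came from GENCODE M21 for 22205 identifiers (96%). Oxycodone was set against saline within each region with edgeR 4.0.16 (TMM, filterByExpr, robust quasi-likelihood test, R 4.3.3), adjusted by Benjamini-Hochberg over all genes at 0.05, two-sided; regions were compared in saline libraries and by an interaction over all libraries. The code was tested on simulated data. DESeq2 1.42.0, limma 3.58.1, other scalings, filters, covariates, subsets and left-out replicates were alternatives. Ratio tests used SciPy 1.17.1. CPM use library totals times TMM factors; intervals of counting error are not given. The genes, the lists and the naming rule (all 10 genes; up to 3 genes per list with the lowest dorsal and 2 with the lowest ventral p; 8 genes by likeness) were chosen with earlier results of these data known.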

Additional observations from a re-analysis of the deposited data

Results flagged for a closer look

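Within groups of 5 or 6 libraries, 9 of 40 gene and group combinations had a library far from its neighbours by Dixon's criterion, which chance meets in about 1 of 20 groups. Dorsal oxycodone replicate 5 stood apart in 5 of the 9: B2m at 264 CPM (next highest 133), H2-K1 at 202 CPM (108), H2-D1 at 93.8 CPM (49.6), Tap1 at 52.7 CPM (22.6) and Tap2 at 28.7 CPM (14.8). Ventral oxycodone replicate 4 stood apart for Psmb10 at 27.1 CPM, with 18.3 CPM next. Ventral saline replicate 3 stood apart for Tap1 at 12.6 CPM, with 6.22 CPM next, and for Psmb8 at 10.7 CPM, with 5.37 CPM next. Ventral saline replicate 6, the library with the lowest striatal projection neuron markers, stood apart for Psmb10 at 30.7 CPM, with 22.3 CPM next.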

How the results depend on the processing

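In the dorsal comparison edgeR called 30 genes and 2 of the 10 described. These counts were 88 and 4 with DESeq2, 58 and 6 without robust dispersions, 5 and 0 with all 22 libraries in 1 fit, 1 and 0 within suffix P libraries, 17 and 1 without them, and 1 and 0 with red cell markers as a covariate. The count for the 10 was 1 with limma-voom (H2-K1), and 1 (Psmb9) both with suffix P as a covariate and with libraries of a shared title number summed. Leaving out 1 library gave 1 to 63 genes (1 without saline replicate 5, 63 without oxycodone replicate 3) and 0 to 5 of the 10. In the ventral comparison DESeq2 called 45 genes and limma-voom 61. Other scalings and filters left 2 of the 10 past the threshold, Psmb8 and Psmb9.

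Among the 10 genes, signs changed for Tapbp, Psmb10, H2-K1 and Tap2. Tapbp turned to -0.44 in the dorsal striatum with the red cell covariate and to -0.0003 in ventral lane 2, and its difference between regions to -0.0368 with limma-voom. Psmb10 turned to 0.0255 in ventral lane 1. Over left-out libraries, dorsal Tapbp ran from -0.0435 to 0.2421 and ventral Tapbp from -0.0722 to 0.1109. The difference between regions ran from -0.0487 to 0.5638 for H2-K1, from -0.0433 to 0.474 for Tap2 and from -0.0562 to 0.2301 for Tapbp, each lowest without dorsal oxycodone replicate 5. Leaving out libraries for that difference was added after the data had been seen. The difference in the Psmb10/Psmb7 log2 ratio, ventral oxycodone vs saline, ran from -0.2215 to 0.0135. The causes were not tested.

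For title numbers shared between regions, correlations of deviations ran from -0.08 to 0.31, and 1 of 10 was over 0.1. Of the 10 dorsal libraries, 4 correlated best with their own number among the ventral libraries of their treatment that share one. These values cannot tell whether a shared number marks 1 animal. With title number as a replicate block the median difference between regions was 0.58, against 0.53 in the same libraries without it, and 0 genes passed in both. Low counts limit ventral Psmb9, which had 4 reads in 1 oxycodone library.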

Other observations

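In the ventral striatum, 3 of 10 genes of class I assembly had an unadjusted edgeR p under 0.05 with higher levels after oxycodone, against 9.13% of the 14116 genes tested with such a p in either direction, and 0 passed the adjusted threshold. These encode chaperones of the endoplasmic reticulum that also fold many other proteins: Hspa5 (log2 change 0.74, SE 0.12, edgeR adjusted p = 0.237), Calr (0.43, SE 0.12, adjusted p = 0.393) and Pdia3 (0.25, SE 0.10, adjusted p = 0.509). In the dorsal striatum Hspa5 had 0.24 (SE 0.21, adjusted p = 0.998) and Calr 0.11 (SE 0.09, adjusted p = 0.998).

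Dorsal oxycodone replicate 5 and ventral oxycodone replicate 4, each the highest oxycodone library of its region for all 10 genes, carry title number 7. The labels do not say whether they come from 1 animal. Deviations of these 2 libraries from their group means correlated at r = 0.309 across genes, the highest of the 10 pairs with a shared number.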
